A study of Mus musculus with 8 samples.

Results

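Chemerin is a secreted protein, encoded by Rarres2, that is made as an inactive precursor and becomes active when proteases trim its carboxy-terminal end. Its signalling receptor is the G protein-coupled receptor encoded by Cmklr1, which is best known from macrophages, dendritic cells and natural killer cells, where it guides migration and acts through inhibitory G proteins and arrestins. Gpr1 encodes another chemerin receptor, and Ccrl2 encodes an atypical receptor that binds chemerin and holds it at the cell surface without known signalling of its own. These 4 genes, the ligand and its 3 receptors, are described here across 8 RNA-seq libraries of spinal cord astrocytes. They are 4 of 39179 gene identifiers in the count tables and were matched by identifier. Cmklr1 was chosen because its difference between the genotypes was already known, so its values are given as a description with no test. The other 3 were included for their role in the same system.

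The libraries were made from Aldh1l1-GFP+ cells sorted from the spinal cords of mice aged postnatal day 12 to 14, of mixed Swiss-Webster background. All 8 libraries carry the GFP reporter. The 4 control libraries (S1, S2, S6 and S7) came from cre-negative animals, labelled wild-type, and the 4 knockout libraries (cKO; S3, S4, S5 and S8) from Aldh1l1-cre animals homozygous for floxed Kir4.1, the potassium channel gene Kcnj10. The series describes them as biological replicates. Values per library are given in that order. Aldh1l1 drives both the reporter and the cre, an astrocyte-enriched promoter, and no library carries cre without the floxed alleles, so effects of cre and of the deletion cannot be told apart. Whether the controls carried floxed alleles was not given.

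Depth was between 13892736 and 25065686 gene reads per library. Kcnj10 was at 1180 to 2310 CPM (read counts scaled to library depth and composition) in the controls and at 27.2 to 37.6 CPM in cKO, so the targeted gene contradicted no label. The 10 astrocyte markers summed to 15100 to 22900 CPM in controls and 18200 to 22300 CPM in cKO. Slc1a2 was the largest part, at 7760 to 11900 CPM in controls and 8140 to 10300 CPM in cKO. Of the 10, 6 had a log2 fold change above 0 and 4 below, with a median of 0.099. Of those above 0, 2 passed the test as higher in cKO. Aldh1l1, whose promoter drives the sorted reporter and the cre, was at 131 to 151 CPM in controls and 244 to 350 CPM in cKO, a log2 fold change of 1.01 ± 0.16 (SE, adjusted p = 0.0179 in edgeR's quasi-likelihood test). Aqp4, the astrocyte water channel gene, was at 1590 to 2450 and 3370 to 5270 CPM, a log2 fold change of 1.10 ± 0.18 (SE, adjusted p = 0.0243 in edgeR's quasi-likelihood test). The groups of libraries lay apart for each, as higher in cKO, as they did for 3.39% of all genes tested. The part of the Aldh1l1 level in the values of the chemerin genes was not tested. Over all 14757 genes tested with edgeR's quasi-likelihood test, 47 (0.318%) had an adjusted p under 0.05, 30 of them (0.203%) higher and 17 (0.115%) lower in cKO. Scaling to library totals alone gave 48 higher and 14 lower.

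Cmklr1 (ENSMUSG00000042190) spans 113612354 to 113650426 of chromosome 5 (GRCm38, minus strand), and its annotated exons merge into 9 blocks that cover 3408 bases. The RefSeq start used for its promoter window lies inside this interval, at 113643603. The 300 bases around that start (chr5:113643554-113643853, minus strand, GRCm38.p6, RefSeq) are shown because Cmklr1 is the member whose level differed between the genotypes. The capitals mark the letters CCAAT, read on either strand:
Cmklr1 promoter: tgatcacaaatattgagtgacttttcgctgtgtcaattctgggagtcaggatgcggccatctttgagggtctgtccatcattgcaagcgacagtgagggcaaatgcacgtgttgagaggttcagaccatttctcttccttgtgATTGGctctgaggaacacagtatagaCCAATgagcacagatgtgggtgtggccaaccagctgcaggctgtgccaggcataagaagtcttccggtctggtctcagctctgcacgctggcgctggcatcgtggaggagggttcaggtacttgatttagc
The window holds 2 CCAAT matches, whose first letters lie 107 and 81 bases before the start. Of the 32817 start-site windows of 300 bases in the RefSeq table, some genes having several, 37.4% hold at least 1. It holds 4 matches of CANNTG, which 72.3% of windows hold. It holds no match, on either strand, of TATAAA (held by 13.6% of windows), GGGCGG (35.6%), TGANTCA (7.81%) or AGGTCA (16.3%), searched with overlaps between motifs allowed. These are letter matches only.

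The signalling receptor Cmklr1 was at a low level in every control library and at a much higher level in every cKO library. The controls held 117, 36, 45 and 80 reads, which are 7.42, 2.62, 2.47 and 3.79 CPM. The cKO libraries held 1046, 3232, 3343 and 2188 reads, which are 53.4, 147, 191 and 93.7 CPM. The groups did not overlap, and the lowest cKO library was 7.20 times the highest control library. Mean levels were 4.07 CPM ± 2.30 (SD, n = 4) in controls and 121 CPM ± 60.0 (SD, n = 4) in cKO, a ratio of 29.7. The fitted log2 fold change was 4.89 ± 0.45 (SE). In bulk RNA, more cells carrying a transcript and more transcript per cell cannot be told apart. Of the 14757 genes tested, 3 had a larger fitted fold change.

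Cmklr1 also varied within each genotype. The highest control, S1, held 3.0 times the lowest, S6, and the highest cKO library, S5, held 3.57 times the lowest, S3. The exact 2-sided Poisson 95% interval of the count was 96.8 to 140 reads in control S1 and 32.8 to 60.2 in control S6, and 3230 to 3460 in cKO S5 against 984 to 1110 in cKO S3. Such intervals cover counting error only. Control S1 was the library with the highest Cmklr1 among the controls and the lowest Kcnj10, at 1180 CPM against 1860 to 2310 CPM in the other 3. Among cKO libraries, Kcnj10 was at 35.6, 27.2, 37.6 and 35.4 CPM, so the libraries with the lowest and highest Cmklr1, S3 and S5, had nearly the same Kcnj10. The authors' deposited table gives Cmklr1 group means of 74.9 and 2228 size-factor-scaled counts and a log2 fold change of 3.69, smaller than the ratio of its own means.

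**Figure D1:**
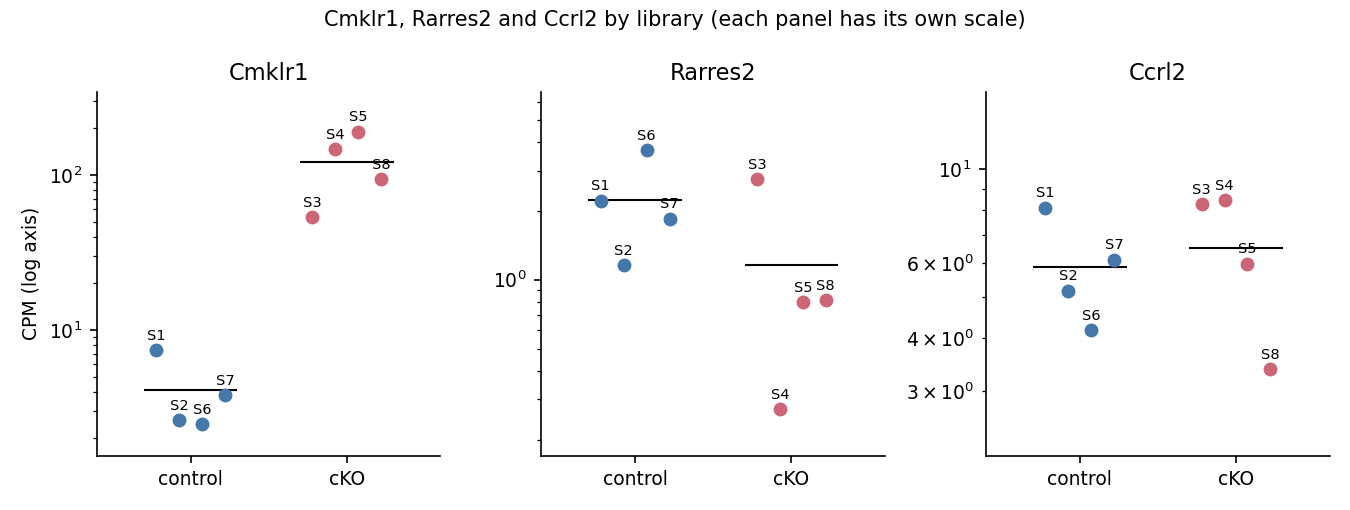
CPM of Cmklr1, Rarres2 and Ccrl2 in each library, on log axes that differ between panels, with points labelled by library and horizontal lines at the group means. Cmklr1 is between 2.47 and 7.42 CPM in controls and between 53.4 and 191 CPM in cKO, while the groups overlap for Rarres2 and Ccrl2.

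The ligand gene Rarres2 (ENSMUSG00000009281) was at a low level in all libraries. It lies on the minus strand of chromosome 6, from 48569696 to 48572789. The controls held 35, 16, 67 and 39 reads, or 2.22, 1.16, 3.68 and 1.85 CPM. The cKO libraries held 54, 6, 14 and 19 reads, or 2.76, 0.272, 0.798 and 0.813 CPM. S4, S5 and S8 lay below every control library, but S3 lay above 3 of the 4 controls, so the groups overlapped. Means were 2.23 CPM ± 1.06 (SD, n = 4) in controls and 1.16 CPM ± 1.09 (SD, n = 4) in cKO. The fitted log2 fold change of −0.94 ± 0.78 (SE) did not pass the test (adjusted p = 0.746, edgeR's quasi-likelihood test). Without cKO S3 it was −1.81, with an adjusted p of 0.528 from the same test.

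Rarres2 counts were small enough for counting error to matter. The exact Poisson 95% interval of the 6 reads in cKO S4 ran from 2.2 to 13.1 reads, and that of the 16 reads in control S2 from 9.15 to 26.0. A further limit is the neighbour Lrrc61 on the opposite strand, which shares 892 bases, or 33.6%, of the Rarres2 exons. Reads in shared bases cannot be given to either gene unless counting used strand, which is not given in the sources used here. Lrrc61 itself was at 12.1 to 26.2 CPM in controls and 17.0 to 21.7 CPM in cKO, with a log2 fold change of −0.071 ± 0.27 (SE). The authors' deposited table gives Rarres2 a log2 fold change of −0.47 and no adjusted p.

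The atypical receptor Ccrl2 (ENSMUSG00000043953, chromosome 9, 111054486 to 111057519, minus strand) was detected in every library at similar levels in both genotypes. The controls held 8.11, 5.17, 4.17 and 6.11 CPM, from 71 to 129 reads. The cKO libraries held 8.27, 8.44, 5.98 and 3.38 CPM, from 79 to 186 reads. Both the lowest and the highest of the 8 libraries were cKO libraries. Means were 5.89 CPM ± 1.68 and 6.52 CPM ± 2.37 (n = 4 each, SD). The fitted log2 fold change of 0.15 ± 0.41 (SE) did not pass the test (adjusted p = 0.941, edgeR's quasi-likelihood test).

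Gpr1 (ENSMUSG00000046856, chromosome 1, 63182691 to 63214543, minus strand) had 0 reads in all 8 libraries. Taking 3 reads per library as the limit that a count of 0 allows, this is 0.128 CPM in the deepest library and 0.218 CPM in the shallowest, for counting error only. The upper end of the exact 2-sided Poisson 95% interval, used for the other counts, is 3.69 reads. No fold change can be given. Reads inside the interval of Gpr1 went to the microRNA gene Gm27512, which shares no exon base with it and held 27 to 63 reads per library. Gpr1 did not enter the fit because no library had a read.

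Of the 4 members, 3 entered the fit. Cmklr1 is among the 47 genes (0.318% of those tested) with an adjusted p under 0.05 and among the 935 (6.34%) whose groups did not overlap (3.39% higher and 2.94% lower in cKO), while Rarres2 and Ccrl2 are in neither set. Cmklr1 was chosen from this contrast, so its place in both sets was fixed by that choice and nothing is read from it.

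Levels were next compared between members per length, as CPM per kilobase of annotated exon (RPKM). In controls, Ccrl2 was at 2.27 RPKM ± 0.646, Cmklr1 at 1.20 RPKM ± 0.676 and Rarres2 at 0.839 RPKM ± 0.400 (n = 4 each, SD). In cKO, Cmklr1 was at 35.5 RPKM ± 17.6, Ccrl2 at 2.51 RPKM ± 0.913 and Rarres2 at 0.437 RPKM ± 0.412 (n = 4 each, SD). Within each control library Ccrl2 was above Cmklr1, and within each cKO library Cmklr1 was above Ccrl2. Cmklr1 made up 41.1%, 27.9%, 31.1% and 32.1% of the summed RPKM of the receptors in the controls. Its share was 83.1%, 93.0%, 96.0% and 95.5% in the knockouts.

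The place of the ligand in this order depended on the measure. In RPKM, Rarres2 was below Cmklr1 in 3 control libraries, and above it in control S6, where the ratio of Cmklr1 to Rarres2 was 0.523. In the knockouts that ratio was 15.1, 420, 186 and 89.7, of which the 420, in cKO S4, rests on 6 Rarres2 reads. The merged exons of Rarres2 cover 2656 bases, most of its gene body, and a longer length gives a lower RPKM. In the authors' deposited FPKM values (fragments scaled to transcript length and depth), Rarres2 was the highest member in controls, at 14.8 FPKM ± 6.67, with Cmklr1 at 4.18 ± 2.87 and Ccrl2 at 3.93 ± 1.11 (n = 4 each, SD). In cKO the deposited FPKM placed Cmklr1 first, at 136 ± 60.6, then Rarres2 at 6.67 ± 5.74 and Ccrl2 at 4.31 ± 1.59 (n = 4 each, SD). When the exon bases shared with Lrrc61 were left out of its length, Rarres2 was at 1.26 RPKM in controls, near Cmklr1. So Cmklr1 was the most abundant member per length in cKO by either measure, while the order of Rarres2 and the receptors in controls is not settled by these files. Gpr1 is listed at 0 FPKM in all libraries.

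Among the 14576 tested genes with an annotated exon length, the standing of Cmklr1 per length also differed. It lay above 42.9%, 20.9%, 18.7% and 28.7% of genes in the controls, and above 91.3%, 97.3%, 97.9% and 95.6% in the knockouts. Ccrl2 lay above 34.0% to 52.6% of genes in controls and 30.7% to 54.4% in cKO. Rarres2 lay above 13.4% to 30.5% in controls and 3.46% to 24.7% in cKO, and the 3.46%, in cKO S4, rests on 6 reads.

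Cmklr1 was then set beside related receptors for chemoattractants, which include complement, leukotriene and chemokine receptors and the atypical chemokine receptors that scavenge ligands. In a set of 23 receptors, made of a list of 20 and the 3 chemerin receptors, Cmklr1 ranked 4 by mean RPKM in controls and 1 in cKO. The receptors of the list with the highest levels over the 8 libraries were Cxcr4, Ackr3 and Ackr4. Cxcr4, the CXCL12 receptor, was at 3.27 RPKM ± 1.28 in controls and 3.70 ± 1.47 in cKO (n = 4 each, SD). Ackr3, an atypical CXCL12 receptor, was at 2.02 RPKM ± 0.835 in controls and 0.766 ± 0.416 in cKO (n = 4 each, SD). Ackr4, a scavenger of CCL19, CCL21 and CCL25, was at 0.389 RPKM ± 0.240 and 1.36 ± 0.463 (n = 4 each, SD). In controls the means of Cxcr4, Ccrl2, Ackr3 and Cmklr1 were separated, between neighbours in that order, by less than the sum of their standard deviations. In cKO the lowest Cmklr1 library, at 15.7 RPKM, lay above the highest library of Cxcr4, at 5.55 RPKM.

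**Figure D2:**
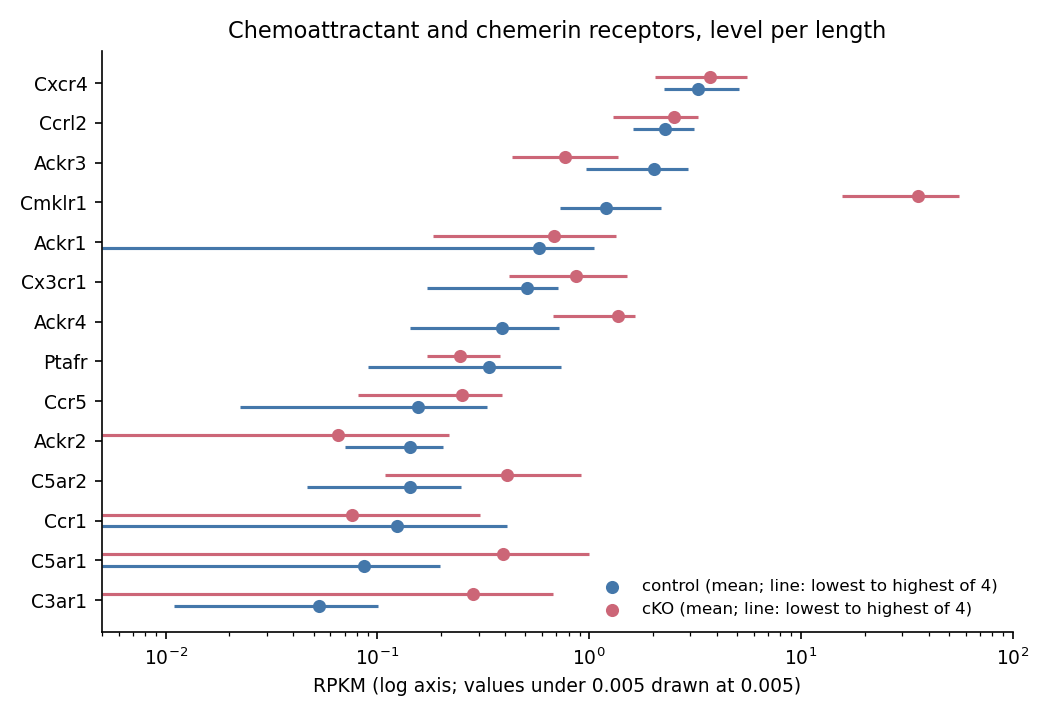
Mean RPKM (points) and the range from the lowest to the highest of 4 libraries (lines) for the receptors with reads in both groups, on a log axis. Cmklr1 in cKO, at 35.5 RPKM, stands to the right of every other receptor, while in controls it lies among Cxcr4, Ccrl2 and Ackr3.

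Of the 20 receptors in the list, 8 were tested, 0 passed at an adjusted p under 0.05 and 3 had no read in any library. The neutrophil receptor gene Fpr1, the leukotriene B4 receptor gene Ltb4r1 and Cxcr3 were those at 0. The median log2 fold change of the 8 was 0.47, against −0.017 over all genes tested. Of the 8, 2 had an unadjusted p under 0.05, as did 9.81% of all genes tested. Ackr4 was at 2.09 CPM ± 1.29 in controls and 7.30 ± 2.49 in cKO (n = 4 each, SD), with a log2 fold change of 1.8 ± 0.54 (SE). Ackr3 was at 6.77 CPM ± 2.79 and 2.57 ± 1.39 (n = 4 each, SD), with a log2 fold change of −1.40 ± 0.52 (SE). With edgeR's quasi-likelihood test, their adjusted p values were 0.250 and 0.376. The groups overlapped for both.

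The enzymes that trim prochemerin were mostly undetected. Of 17 listed genes, 11 had no read in any library, among them Plg (plasminogen), F12 (coagulation factor XII), Elane (neutrophil elastase), Ctsg (cathepsin G) and the mast cell proteases Tpsab1, Tpsb2 and Cma1. Of the 4 tested, 0 passed. Plat, the tissue plasminogen activator, was at 48.7 CPM ± 9.90 in controls and 49.4 ± 11.8 in cKO (n = 4 each, SD), with a log2 fold change of 0.021 ± 0.22 (SE). Ctsl, the lysosomal protease cathepsin L, was at 278 CPM ± 73.4 and 286 ± 76.6 (n = 4 each, SD), with a log2 fold change of 0.042 ± 0.23 (SE). The remaining tested genes, Ctsk and Ace, had means under 1 CPM in both groups.

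Cmklr1 has also been reported as a receptor for resolvin E1, a lipid made from eicosapentaenoic acid by lipoxygenase and cyclooxygenase steps. Of 8 genes for such enzymes 3 were tested and 0 passed. Ptgs1, which encodes cyclooxygenase 1, was at 29.0 CPM ± 21.7 in controls and 76.1 ± 27.5 in cKO (n = 4 each, SD). Its log2 fold change of 1.40 ± 0.48 (SE) passed an unadjusted p of 0.05 in edgeR's quasi-likelihood test, where its adjusted p was 0.328. Alox5, the 5-lipoxygenase gene, was at 0.422 CPM ± 0.392 and 2.05 ± 1.39 (n = 4 each, SD), with a log2 fold change of 2.28 ± 1.06 (SE). Lta4h, the leukotriene A4 hydrolase gene, was at 13.0 CPM ± 1.76 and 12 ± 2.17 (n = 4 each, SD). Alox15 had no read in any library.

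The intracellular machinery that such receptors use was present in both genotypes. Of 28 genes for G protein subunits, receptor kinases, arrestins, phospholipases C and other downstream proteins, 27 were tested and 0 passed. Their median log2 fold change was 0.057, with 15 above and 12 below 0. Gnai2, the inhibitory alpha subunit gene with the highest CPM in the list, was at 216 CPM ± 29.0 in controls and 238 ± 39.5 in cKO (n = 4 each, SD), with a log2 fold change of 0.14 ± 0.17 (SE). Arrb1, which encodes an arrestin that uncouples active receptors, was at 182 CPM ± 19.2 and 142 ± 27.0 (n = 4 each, SD), with a log2 fold change of −0.35 ± 0.17 (SE). Of the 27, 3 had an unadjusted p under 0.05, as did 9.81% of all genes tested. The 3 are near that share, so nothing is read from their number. They were named after their values were seen. Gnaz had a log2 fold change of 0.98 ± 0.44 (SE), Gng12 of 0.36 ± 0.16 and the receptor kinase gene Grk3 of −0.42 ± 0.19. Their adjusted p in edgeR's quasi-likelihood test were 0.491, 0.501 and 0.479.

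Rarres2 takes its name from its response to retinoids, so genes of retinoic acid synthesis, binding, reception and breakdown were listed as well. Of 19 genes, 14 were tested and 0 passed, and their median log2 fold change was 0.34. Rarres1, another retinoid-responsive gene, was at 12.3 CPM ± 3.46 in controls and 23.0 ± 8.83 in cKO (n = 4 each, SD), a log2 fold change of 0.90 ± 0.32 (SE). Aldh1a1, a retinaldehyde dehydrogenase gene, was at 19.0 CPM ± 8.57 and 43.4 ± 17.2 (n = 4 each, SD), a log2 fold change of 1.20 ± 0.36 (SE). Both were named after their values were seen. They had an unadjusted p under 0.05, as did 9.81% of all genes tested. Their adjusted p were 0.352 and 0.247 in edgeR's quasi-likelihood test. Rarb, a retinoic acid receptor gene, was at 4.60 CPM ± 2.92 and 9.77 ± 1.73 (n = 4 each, SD). Each cKO library lay above each control library, with the lowest cKO at 7.81 CPM and the highest control at 7.72 CPM. Of all genes tested, 3.39% lay apart in this direction. Rarres1 and Aldh1a1 were thus higher on average in cKO while Rarres2 was lower on average, with none of the 3 past the threshold.

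Across the 5 lists together, 56 of 92 genes were tested and 0 passed at an adjusted p under 0.05 in edgeR's quasi-likelihood test. At an unadjusted p under 0.05 there were 6 higher and 2 lower, or 14.3%, against 9.81% of all genes tested (5.03% higher and 4.77% lower). The groups did not overlap for 2 of the 56, Rarb and Gng12, both higher in cKO. Over all genes tested, 3.39% lay apart as higher and 2.94% as lower, so nothing is read from these 2. DESeq2 called 1 list gene, Ackr4 (log2 fold change 1.8, adjusted p = 0.0274), and 383 genes in all. It placed 12 list genes at an unadjusted p under 0.05. limma-voom called 0 list genes and 48 genes in all, with 11 list genes at an unadjusted p under 0.05. The share of all genes at that unadjusted p was not taken for either tool, so nothing is read from these counts.

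**Figure D3:**
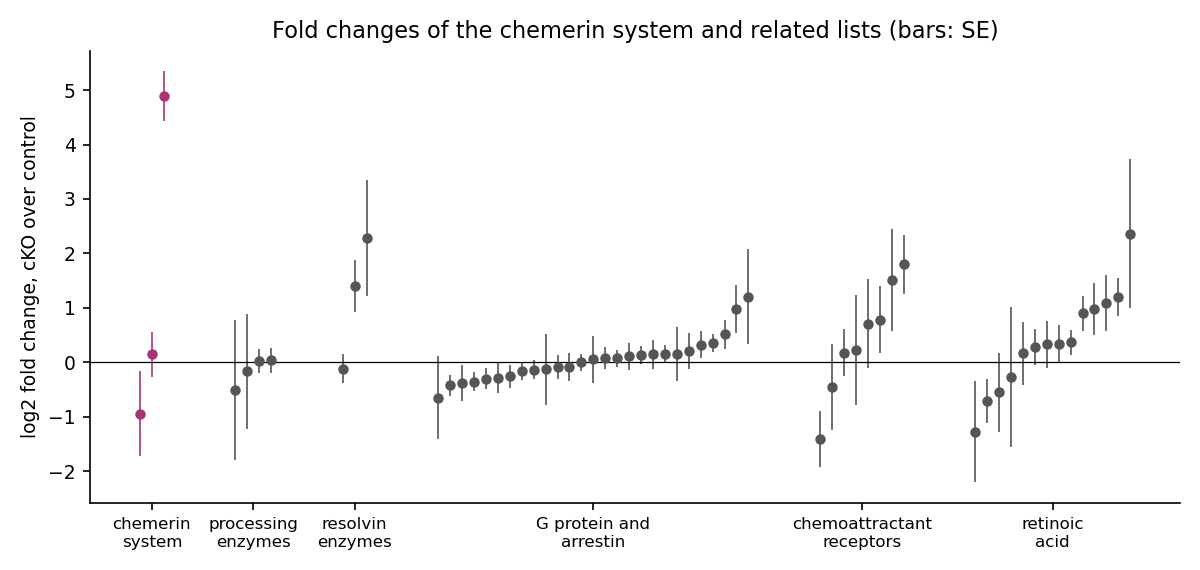
Fitted log2 fold change, cKO over control, with its standard error for the tested members of the chemerin system and of the 5 related lists, ordered by value within each list. Cmklr1, at 4.89, is above every gene of the lists, of which none had an adjusted p under 0.05.

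Cmklr1 and Rarres2 are known from other cell types, so markers of those cells were read in the same libraries. Markers of microglia and macrophages (14 genes, none at 0 throughout) summed to 65.7, 56.1, 39.1 and 46.4 CPM in the controls. Their sums were 85.0, 67.6, 54.7 and 53.7 CPM in the knockouts. Among the controls, S1 was highest and S6 lowest for both these markers and Cmklr1. cKO S3 had the highest sum of these markers and the lowest Cmklr1 of the cKO libraries. cKO S5, with the highest Cmklr1, had a lower sum than control S1. The part of these cells in the Cmklr1 values was not tested. The difference between genotypes was 0.33 on the log2 scale (exact 2-sided permutation test, p = 0.229, adjusted p = 0.393 over 12 lists). Of the 12 tested genes in this list, 10 had a fold change above 0 and none passed.

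Of the 6 markers of natural killer and plasmacytoid dendritic cells, 5 (Ncr1, Klrb1c, Klrd1, Nkg7 and Ly6d) had no read in any library, and the list summed to 0.291 to 0.568 CPM in controls and 0.428 to 2.45 CPM in cKO. Of the 5 neutrophil markers, S100a8, S100a9 and Ly6g had no read, and the list summed to at most 1.23 CPM. Endothelial markers (8 genes) summed to 43.5 to 80.5 CPM in controls and 28.3 to 68.2 CPM in cKO, a difference of −0.54 on the log2 scale (exact permutation test, p = 0.143).

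The ligand is known from adipocytes and fibroblasts, and markers of ependymal cells, which line the central canal, were read as well. The 4 adipocyte markers (Adipoq, Plin1, Lep and Fabp4) had no read in any library. Fibroblast markers (7 genes, none at 0 throughout) summed to 110, 194, 609 and 179 CPM in the controls and to 155, 76.1, 86.5 and 154 CPM in the knockouts. The difference was −0.97 on the log2 scale (exact permutation test, p = 0.143), and all 6 tested genes of the list had a fold change below 0. Control S6 was highest for both these markers and Rarres2, and cKO S4 was lowest for both. In controls S1, S2 and S7 the orders were opposite. Of these, S2 was highest for the markers and lowest for Rarres2, and S1 the reverse. Ependymal markers (6 genes, among them the cilia regulator Foxj1) summed to 7.23 to 26.9 CPM in controls and 9.67 to 26.3 CPM in cKO, and were highest in control S6 and cKO S3, the libraries with the highest Rarres2 in each group. Control S1 was the lowest control for ependymal markers but held more Rarres2 than S2 and S7. The part of fibroblasts and ependymal cells in the Rarres2 values was not tested.

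The other lists moved as follows, none past an adjusted p of 0.05. Mural markers summed to 29.7 to 49.1 CPM in controls and 35.2 to 38.2 CPM in cKO. Oligodendrocyte markers summed to 1360 to 2730 and 944 to 2320 CPM, oligodendrocyte precursor markers to 274 to 902 and 173 to 412 CPM, and neuronal markers to 34.5 to 76.6 and 21.3 to 36.3 CPM. On the log2 scale, the differences were −0.21 for mural, −0.39 for oligodendrocyte, −1.09 for oligodendrocyte precursor and −0.86 for neuronal markers. The lowest exact 2-sided permutation p of the 12 lists was 0.0571, for neurons, and the lowest adjusted p was 0.343. The smallest p that 4 against 4 libraries allow is 0.0286. A single list at that p would not pass 0.05 after adjustment over 12 lists. Passing would need several lists to reach it together, so the adjusted p cannot show that cell composition was unchanged.

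**Figure D4:**
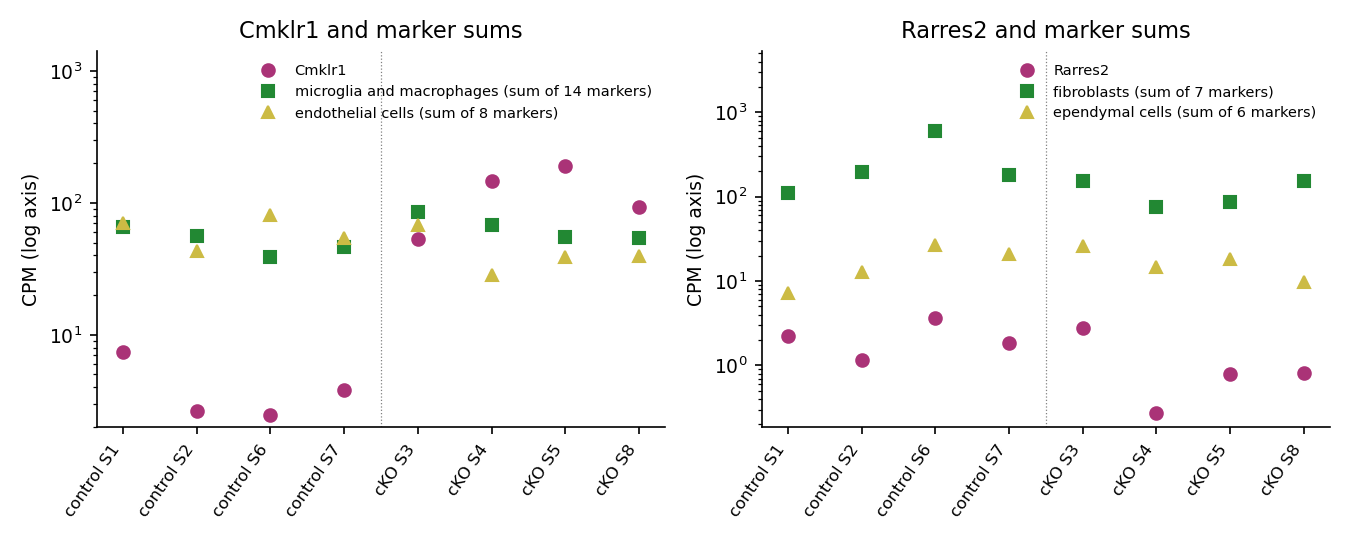
Cmklr1 (left) and Rarres2 (right) in each library beside summed CPM of marker genes of other cell types, on log axes, with a dotted line between the groups. The sum for microglia and macrophages is between 39.1 and 85.0 CPM in all 8 libraries, and Rarres2 is highest in control S6, as are the sums for fibroblasts and ependymal cells.

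Genes near Cmklr1 were then examined. Its gene body overlaps the antisense gene Gm15736, which shares no exon base with it and held at most 6 reads in a library. Within 500 kb, 15 genes entered the fit, and 0 passed at an adjusted p under 0.05 (edgeR's quasi-likelihood test). The median log2 fold change was 0.37, and 4 genes (26.7%) had an unadjusted p under 0.05, against 9.81% of all genes tested. The nearest tested gene on either side was Wscd2, 22.6 kb away, at 0.470 CPM ± 0.516 in controls and 3.01 ± 2.51 in cKO (n = 4 each, SD), and Ficd, 85.4 kb away, at 31.7 CPM ± 5.64 and 34.8 ± 11.1 (n = 4 each, SD). Wscd2 had a log2 fold change of 2.68 ± 1.08 (SE) and an adjusted p of 0.425 in edgeR's quasi-likelihood test, and Ficd one of 0.14 ± 0.25 (SE). The other 3 at an unadjusted p under 0.05, named after their values were seen, were Dao, Usp30 and Acacb. Dao, the gene of D-amino acid oxidase, an enzyme of hindbrain and spinal astrocytes that breaks down D-serine, was at 9.33 CPM ± 7.41 in controls and 40.5 ± 24.1 in cKO (n = 4 each, SD). Its log2 fold change was 2.12 ± 0.57 (SE) and its adjusted p 0.189 in edgeR's quasi-likelihood test. The microglial marker Tmem119 lies 143 kb away, at 1.59 CPM ± 1.22 and 1.94 ± 2.01 (n = 4 each, SD).

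**Figure D5:**
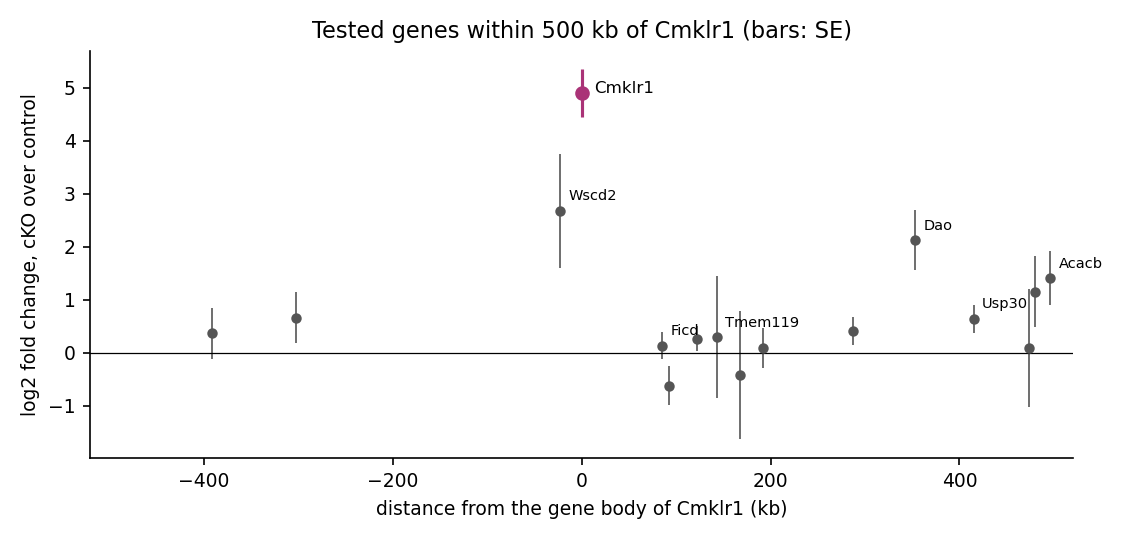
Fitted log2 fold change with its standard error for the 15 tested genes within 500 kb of Cmklr1, against the distance in kb from the Cmklr1 gene body, negative towards lower coordinates. Cmklr1 stands at 4.89 and the others lie between −0.62 and 2.68.

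The genes whose pattern was most like that of Cmklr1 were taken from 12224 genes with a mean of at least 1 CPM, by Pearson's r of log2 CPM over the 8 libraries. They were Drp2 (0.988), a dystrophin-related protein gene, Plxnb2 (0.988), a semaphorin receptor gene, Slc38a1 (0.978), a neutral amino acid transporter gene, Fndc3b (0.977) and Pla2g5 (0.976), a secreted phospholipase A2 gene. These values include the difference between genotypes. Slc38a1 was at 53.1 to 74.0 CPM in controls and 242 to 344 CPM in cKO, and Pla2g5 at 0.218 to 0.507 and 3.51 to 12.4 CPM. For all 5, the lowest cKO value lay above the highest control value, as for 3.39% of all genes tested. The 5 were picked for likeness to Cmklr1, whose own groups lay apart, so nothing is read from this.

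With the mean of each group subtracted, the 5 genes most like Cmklr1 over the 8 libraries were Spon1 (r = 0.972), which encodes the matrix protein F-spondin, Mcrip2 (0.971), Plxnb2 (0.964), B3galt1 (0.956), a galactosyltransferase gene, and Plpp3 (0.955), a lipid phosphate phosphatase gene. Plxnb2 was named by both measures, which use the same 8 libraries and so are not independent. It was at 32.1 to 43.3 CPM in controls and 53.5 to 79.7 CPM in cKO. By the same measure the genes most like Rarres2 were Apaf1 (0.970), Zfp607b (0.924) and Mdm4 (0.896), and those most like Ccrl2 were Fzd1 (0.991), Mal (0.960) and Lrig2 (0.959). All genes named for likeness have the highest r among 12224 compared over only 8 libraries. Whether r this high would arise by chance among so many genes was not tested. Between members, r with group means subtracted was −0.51 for Cmklr1 and Rarres2, 0.31 for Cmklr1 and Ccrl2, and −0.032 for Rarres2 and Ccrl2, over 8 libraries that share depth and scaling.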

How the data were processed

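Per the submitters' processing notes, TopHat2 2.0.11, Bowtie2 2.2.3, HTSeq 0.6.1p1, Cufflinks 2.2.1, Cuffnorm and DESeq2 1.14.1 were used with GRCm38; their roles, the annotation release and the strand setting are not given in the sources used here. The authors deposited raw counts per gene and library for 39179 identifiers, ending in 5 summary lines that held 56.4% to 61.7% of reads and were left out. They also deposited FPKM values; only 3 of 8 columns followed the counts of the same library name best (13779 genes), although all 8 followed their own group, so FPKM was used by group only. The authors' deposited DESeq2 table holds group means of scaled counts (a signal), log2 fold changes, standard errors and Wald statistics (scores) and p-values.

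Counts were tested with edgeR 4.0.16 (TMM, filterByExpr, quasi-likelihood test, no covariate; R 4.3.3), with Benjamini-Hochberg adjustment over 14757 genes, a threshold of 0.05 and the fold change given as cKO over control. CPM used TMM-scaled library sizes, and RPKM divided them by merged exon length in GENCODE mouse release 21. Marker sums (log2, with 0.01 CPM added) were compared by exact permutation tests with scipy 1.17.1. Alternatives were other size factors, DESeq2 1.42.0, limma-voom 3.58.1, other count filters, leaving out each library, and log2 of FPKM with a pseudocount of 1 or 0.1, for genes with a mean of at least 0.1 FPKM.

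Members and lists were chosen with earlier results of these data known. Genes named were the 4 members, list genes past the threshold (at most 8 per list), the 3 listed receptors with the highest mean level, the 5 genes most like Cmklr1 by each measure and 3 most like each other member above 1 CPM (predicted genes, pseudogenes and sex-specific transcripts left out), genes overlapping a member, the nearest tested gene on each side of Cmklr1, and Kcnj10. Any other gene was named after its values were seen.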

Additional observations from a re-analysis of the deposited data

Results flagged for a closer look

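Cmklr1, Rarres2, Ccrl2, Kcnj10, the marker lists with reads and a part of the other named genes were examined. The check looked for a library far from the other 3 of its group. Arrb1, Rarb, Alox5, Ctsk and Ace were among the named genes left out. Of 62 groups of 4 libraries, 5 held such a library, where chance gives about 1 in 20, or 3.1. No flagged value belongs to Cmklr1, Rarres2 or Ccrl2. Summed astrocyte markers were at 22300 CPM in cKO S4, against 18200 to 18300 CPM in the other cKO libraries. Markers of natural killer and plasmacytoid dendritic cells were at 2.45 CPM in cKO S3, against 0.428 to 0.635 CPM. Mural markers were at 29.7 CPM in control S7, against 47.4 to 49.1 CPM. Fibroblast markers were at 609 CPM in control S6, against 110 to 194 CPM, and Rarres2 was highest in the same library. Oligodendrocyte precursor markers were at 412 CPM in cKO S3, against 173 to 203 CPM.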

How the results depend on the processing

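The fold change of Cmklr1 was 4.78 to 5.15 over the 8 other settings and 4.59 to 5.34 over the 8 fits that each left out a library. Rarres2 stayed negative (−1.34 to −0.75 over 7 settings; −1.81 to −0.59 without a library) and was never past the threshold, with adjusted p of 0.528 to 0.898; it could not be fitted with at least 10 counts in every library. Ccrl2 was between 0.078 and 0.28 over 8 settings and −0.0041 to 0.36 without a library, reversed without cKO S4 (−0.0041), with adjusted p of 0.830 to 0.999 (edgeR, DESeq2 and limma). The count of changed genes, 47, was 87 when a single library with 1 count sufficed, 84 when every library needed 10, 383 with DESeq2, and 4 to 45 without a library, lowest without cKO S4. List genes called, 0, became 1 with DESeq2 and 0 to 1 without a library. Library totals moved the median fold change of all genes from −0.017 to 0.091. Marker differences changed sign as mean log2 CPM for mural (0.23) and ependymal cells (−0.19), and without a library for astrocytes (−0.027 to 0.17), neutrophils (−0.050 to 1.27) and ependymal cells (−0.25 to 0.38). Rarres2 in controls moved from 0.839 to 1.26 RPKM when shared exon bases were left out, chosen after seeing the data; this follows from the shorter length. The cause of the other changes was not tested. Depth limits Rarres2, Gpr1 and the listed genes under 1 CPM. No paired analysis was possible because the groups share no replicate number.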
